A study of Mus musculus with 2 samples.

Results

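ATP-binding cassette (ABC) proteins were examined across long-term haematopoietic stem cells (LT-HSCs) from wild-type mice and from mice lacking cia-cGAS. The genes were taken by symbol: every gene whose name in the annotation of the arrays begins with Abc, a subfamily letter from A to G and a number. They were 44 of 24203 genes measured. The family was chosen with the log2 levels and differences of these arrays in view, and Abcb4 was selected on its difference, so its values and the counts that hold it are a description.

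Expression was measured on single-colour NimbleGen arrays, 1 array for each genotype. Both samples were LT-HSCs of C57BL/6 bone marrow, sorted at a mouse age of 8 weeks, either wild type or knockout for cia-cGAS, with no treatment named. cia-cGAS is a circular RNA, and the sources used here give neither the allele nor the sort markers, cell number or pooling of animals. With 1 array per group no difference has a replicate check, no test was run, and each value describes these 2 arrays.

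ABC proteins bind and hydrolyse ATP through paired nucleotide-binding domains, and most of them use that energy to move lipids, drugs, peptides, metabolites or haem precursors across a membrane. The E and F subfamilies lack membrane-spanning parts and act on ribosomes instead. In blood-forming tissue the family is best known through ABCG2 and P-glycoprotein, which pump the dye Hoechst out of cells, the property behind the "side population" used to enrich stem cells.

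The intensities are log2 values of deposited RMA summaries, and a difference is knockout minus wild type. Rows of odorant, vomeronasal and taste receptor genes gave each array a detection floor, 9.11 on the wild-type array and 8.97 on the knockout array (log2). A fold is given for genes above both floors, a bound ("at least") for genes above 1, and none for genes below both. Intensities of different genes come from different probes, so no gene's level is set against another's. Where intensities are summed over a marker list, the same genes enter on both arrays and the brightest rows weigh most. Over the 9242 genes above both floors the central 95% of differences ran from -1.18 to 1.56. Kit and Ly6a, genes of stem and progenitor surface markers, were above both floors, whereas the LT-HSC surface markers Procr and Slamf1 were below both. Neutrophil markers passed the floor for 17 of 19 genes in the wild type and 18 of 19 in the knockout, and monocyte and macrophage markers for 15 of 17 and all 17. Of 15 LT-HSC and early progenitor markers, 10 were above either floor (median difference -0.07). For T and NK cells they were 8 of 11, with a median of 0.16 that became -0.10 over the 5 genes above both floors. Among megakaryocyte and platelet markers, 7 of 10 were above either floor. The last list was split, with 2 genes at least 2-fold higher and 2 lower, and a median of -0.87 that became -0.27 over the 6 genes above both floors.

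Of the 44 ABC genes, 16 were above the floor on at least 1 array (36.4%, against 44.9% of all genes), and 15 of these on both. Of the 16, 1 gene, Abcb4, had a level lower by 2-fold or more in knockout cells, where the share over all genes above either floor was 4.06%. None was at least 2-fold higher, where that share was 5.53%. Of the 15 genes above both floors, 9 were lower in the knockout and 6 higher, beside 53.6% lower over all genes. A difference of at least 0.5 in size was seen for 4 of the 15, beside 29.4% of all genes. The median difference of the 16 genes was -0.07, or -0.04 without Abcb4, and that of all 10859 genes above either floor was -0.02. Apart from Abcb4, the counts and the median lay near those of the whole array.

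**Figure D1:**
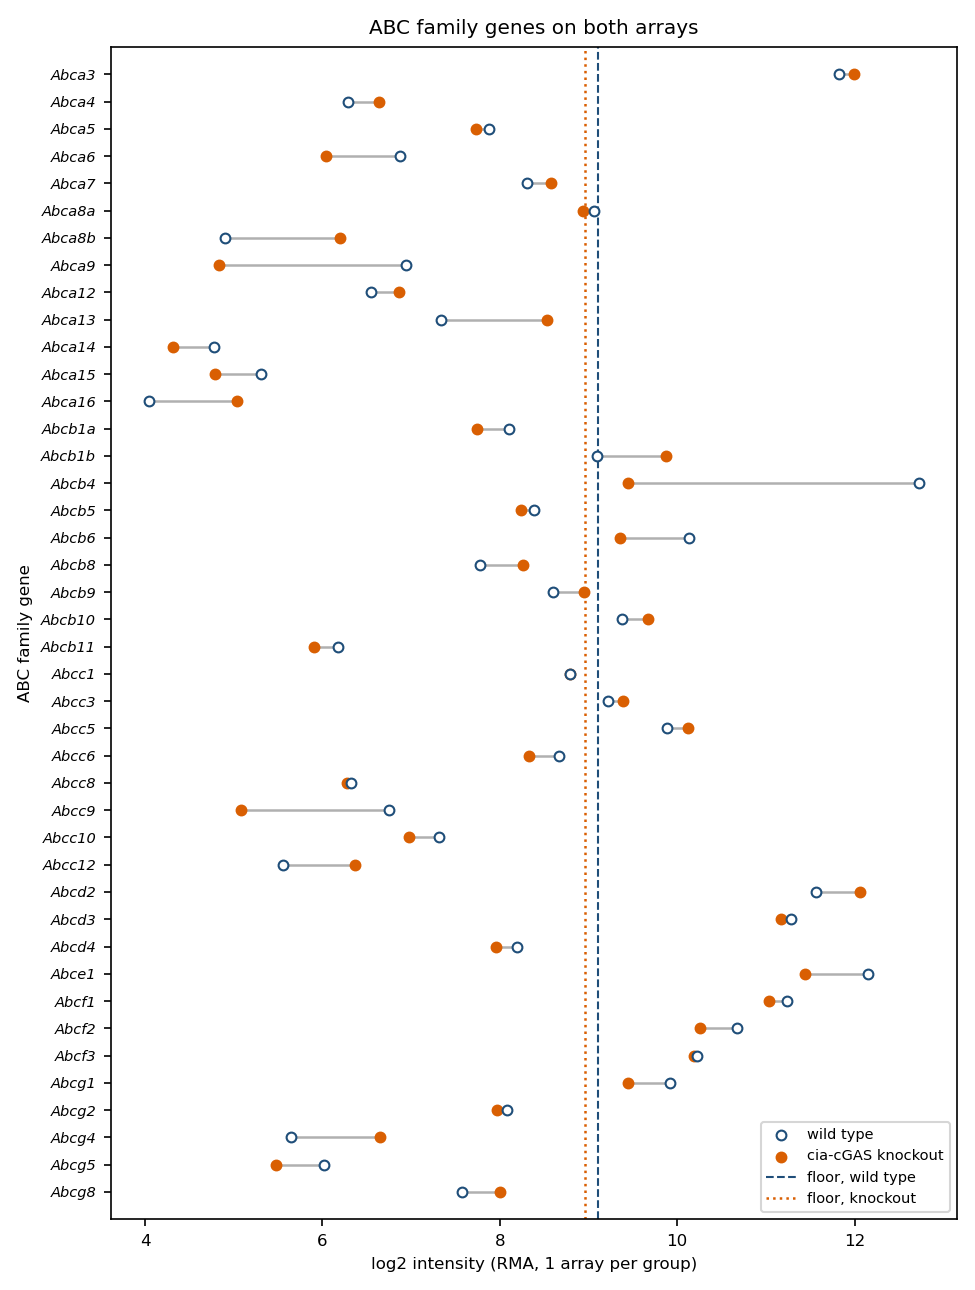
Log2 intensity of 42 of the 44 ABC genes (vertical axis) on the wild-type array (open circles) and the knockout array (filled circles), 1 array per group, with both detection floors as vertical lines. The longest line to the right of the floors is that of Abcb4, from 12.72 to 9.45, and 28 genes have both points left of the floors.

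Subfamilies differed in how many members were detected. Above at least 1 floor were 1 of 13 genes of subfamily A, 5 of 10 of B, 2 of 8 of C, 3 of 4 of D, the single E gene, all 3 F genes and 1 of 5 G genes. The genes of peroxisomal transport and of translation were thus mostly detected, while those of lipid transport in subfamilies A and G mostly were not.

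Abcb4 encodes the phosphatidylcholine floppase of the bile canaliculus in liver, and its transcripts are also known from B cells. Its row read an intensity of 6754 in wild-type cells and 698 in knockout cells, or 12.72 and 9.45 on the log2 scale. The wild-type value lay far above its floor and the knockout value a little above its own. The difference of -3.27 is a 9.67-fold lower level in the knockout. It was the most negative among the 9242 genes above both floors, a set that leaves out 617 genes above the wild-type floor alone. The gene (gene ID 18670) has a single row of 3 probes, a transcript placed on chromosome 5 from 8893948 to 8941114 of the MM9 build, which holds for all gene positions given here, and the position of the probes within its exons is not stated. No second row of Abcb4 was available to check the value. Abcb11, the bile salt pump gene of the same canalicular membrane, lay below both floors at 6.18 and 5.90.

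B lineage markers were lower on the same array. Of 17 such genes, 13 passed the floor in wild-type cells and 6 in knockout cells. Of the 13 above either floor, 9 were at least 2-fold lower and 0 higher, with a median difference of -2.31. The intensities of the 17 genes summed to 28594 in wild-type cells and 6403 in knockout cells. Ebf1 and Pax5, transcription factor genes of B cell commitment, were lower by 6.89-fold and at least 5.45-fold, and Cd72, a B cell surface receptor gene, by 6.14-fold, although the rows of Cd72 ranged from -2.89 to 0.01. Whether fewer cells of a type or less RNA per cell lies behind such values cannot be told apart in bulk RNA, and the part of B lineage cells in the Abcb4 value was not tested.

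**Figure D2:**
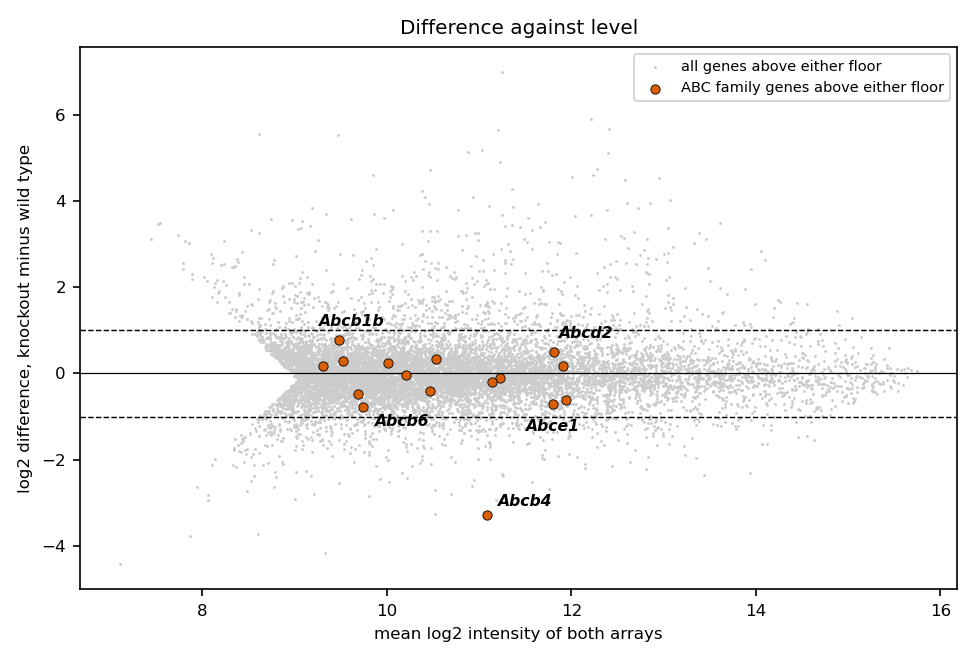
Log2 difference, knockout minus wild type, against the mean log2 intensity of both arrays, for all 10859 genes above either floor (grey) and the 16 ABC genes among them (orange), with dashed lines at 2-fold. Abcb4 lies at -3.27, below the lower line, and the other 15 ABC genes lie between both lines.

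Abcb4 neighbours its closest relatives, Abcb1a and Abcb1b, which together encode the mouse forms of P-glycoprotein, the multidrug efflux pump. Promoter windows of 250 bases are shown for each of these genes because Abcb4 and the adjacent Abcb1b differed in opposite directions on the arrays. They are taken from RefSeq for GRCm38.p6, all on the plus strand, 5′ to 3′, with CpG dinucleotides in capitals. They span chr5:8566841-8567090 for Abcb1a, chr5:8797897-8798146 for Abcb1b and chr5:8893471-8893720 for Abcb4.
Abcb1a: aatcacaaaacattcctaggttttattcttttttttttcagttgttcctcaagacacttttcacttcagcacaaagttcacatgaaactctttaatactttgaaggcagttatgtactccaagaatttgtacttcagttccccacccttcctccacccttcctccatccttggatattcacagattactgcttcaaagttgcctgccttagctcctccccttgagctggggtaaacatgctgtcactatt
Abcb1b: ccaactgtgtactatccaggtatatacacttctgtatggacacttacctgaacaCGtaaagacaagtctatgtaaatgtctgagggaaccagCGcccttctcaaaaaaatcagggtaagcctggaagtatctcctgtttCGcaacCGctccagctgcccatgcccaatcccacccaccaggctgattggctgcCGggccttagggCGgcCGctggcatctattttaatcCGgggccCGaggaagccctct
Abcb4: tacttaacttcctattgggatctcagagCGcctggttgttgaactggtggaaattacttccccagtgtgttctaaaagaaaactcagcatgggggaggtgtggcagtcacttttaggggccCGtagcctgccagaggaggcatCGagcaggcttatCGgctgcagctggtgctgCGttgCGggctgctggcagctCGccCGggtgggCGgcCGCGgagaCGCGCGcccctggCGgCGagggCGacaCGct
The window of Abcb1a holds 0 CpG dinucleotides, that of Abcb1b 9 and that of Abcb4 18, with a G+C content of 40.4%, 52.8% and 61.6%. The start that RefSeq gives for Abcb1a lies inside the neighbouring gene Rundc3b, and which start these cells use was not measured. The windows of Abcb1a and Abcb1b end just before the gene starts in RefSeq. The gene start of Abcb4, at 8893614 of GRCm38.p6, lies inside its window, and most CpG dinucleotides of that window lie at or after it. The windows are thus not like regions, and their CpG counts do not compare the bases upstream of the gene starts.

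Abcb1a read 8.10 in wild-type cells and 7.74 in knockout cells and was below both floors, so no fold is given. Abcb1b read 9.10 and 9.87. Its wild-type value lay just under the floor of 9.11 and its knockout value was above its own, which makes it at least 1.70-fold higher in the knockout. The other row of Abcb1b, below both floors at 7.82 and 8.55, differed by 0.72, close to the 0.77 of the first. Abcb1b was the 1 gene of the family, of 16 above either floor, detected on the knockout array alone. Over the whole array, 1000 of 10859 genes above either floor were above the knockout floor alone. Abcb1a and Abcb1b are close paralogs whose probes may share hybridisation, so each single value is uncertain.

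Within 250 kb of these genes, 17 rows are placed on the array, and 5 rows other than Abcb4 were above both floors. Crot, which encodes a peroxisomal carnitine acyltransferase and lies 24.9 kb beyond Abcb4, differed by -0.47 and -0.16 in its 2 detected rows. Dmtf1, a cyclin D-binding transcription factor gene about 178 kb away, differed by 0.51 and 0.58. An unnamed row whose position overlaps that of the Dmtf1 rows differed by 0.81. Rundc3b, on the far side of Abcb1a, was below both floors. No other row of the window approached the difference of Abcb4.

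**Figure D3:**
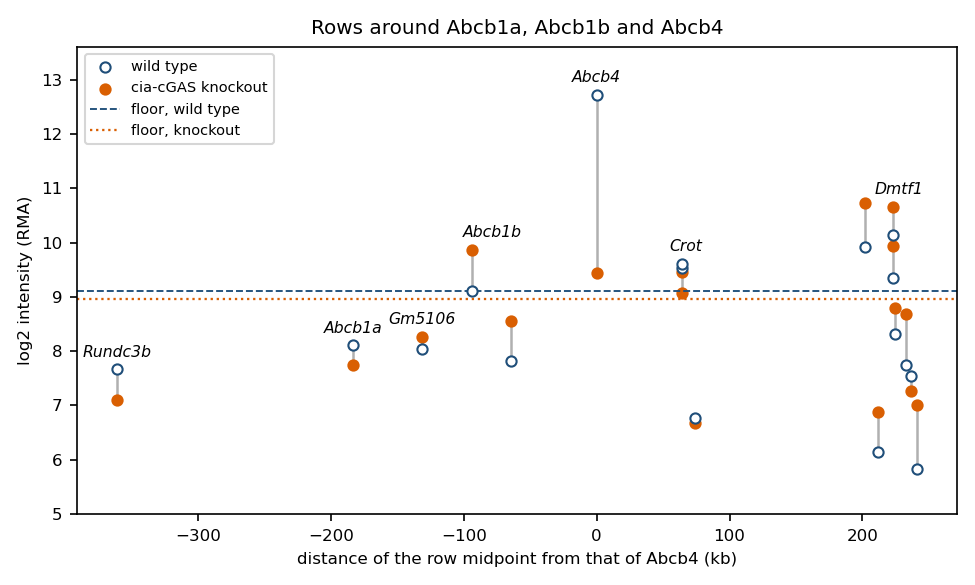
Log2 intensity of the 17 rows around Abcb1a, Abcb1b and Abcb4 in the wild type (open) and the knockout (filled), 1 array per group, against the distance of each row's midpoint from that of Abcb4 in kb; horizontal lines mark both floors. The drop of Abcb4 from 12.72 to 9.45 is flanked by a higher knockout value for Abcb1b and by rows of Crot that differ by -0.47 and -0.16.

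Among the other pumps of drugs and organic anions, Abcg2, the Hoechst efflux pump gene of the side population, was not detected. It read 8.08 in wild-type cells and 7.97 in knockout cells in its brighter row (gene ID 26357, chromosome 6 from 58546664 to 58642445). Its second row read 6.96 and 5.59, also below both floors. Absence of a signal above the floor does not show absence of the transcript at this sensitivity. Abcc1, a pump of glutathione conjugates, read 8.79 on both arrays and lay below both floors.

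The organic anion and nucleotide pump genes Abcc3 and Abcc5 were detected on both arrays. Abcc3 read 9.22 in wild-type cells and 9.39 in knockout cells, a difference of 0.18, with its second row, under the floors, at 0.11. Abcc5, an exporter of cyclic nucleotides, read 9.89 and 10.13, a difference of 0.24. All 5 rows of Abcc5 were higher in the knockout, from 0.12 to 1.43, and the largest of these came from rows under both floors. The remaining genes of this group, Abcb5, Abcc6, Abcc10 and Abcc12, were below both floors.

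Genes of sterol and phospholipid export showed small differences. Abca3, which encodes the phospholipid transporter of lamellar bodies, read 11.82 in wild-type cells and 12.00 in knockout cells, a difference of 0.18. Its other 3 rows were below both floors and ranged from -1.40 to 0.15. Abcg1, which exports cholesterol from macrophages to lipoproteins, read 9.92 and 9.45 and was 1.39-fold lower. Its second row, below both floors, went the other way by 0.85. Abca4, Abca7, Abca12, Abcg4, Abcg5 and Abcg8 were below both floors, and no row was found by the naming rule for Abca1 or Abca2, which are not analysed here.

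Other genes of sterol handling differed little for the most part, 12 of the 14 above both floors by under 0.5 in size. Of 17 genes of sterol and lipid efflux, 15 were above either floor, the median difference was 0.16, and 1 gene was at least 2-fold higher and 0 lower. Npc2 and Pltp, which encode a lysosomal cholesterol carrier and a phospholipid transfer protein, differed by 0.17 and -0.26. The sterol sensor LXR-alpha, encoded by Nr1h3, is known to drive Abca1 and Abcg1, and its gene read 9.30 and 9.61.

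Among the B subfamily genes of mitochondria, Abcb6 was lower in the knockout. This porphyrin transporter gene (chromosome 1 from 75168214 to 75176857) read 10.14 in wild-type cells and 9.35 in knockout cells. Its difference of -0.78 is a 1.72-fold lower level from a single named row. An unnamed row at the Abcb6 locus, below both floors, differed by 0.30 in the other direction.

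Abcb10, a mitochondrial transporter gene needed in haem synthesis of red cells, read 9.38 in wild-type cells and 9.67 in knockout cells, a difference of 0.29. An unnamed row overlapping its locus, below both floors, differed by -0.87. Abcb8 and the lysosomal peptide transporter gene Abcb9 were below both floors, Abcb9 only just in the knockout, at 8.95. All 3 rows of Abcb8 were higher in the knockout, from 0.40 to 0.91, and those of Abcb9 ranged from -0.88 to 0.35.

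Partner genes of haem and iron-sulfur assembly had a median difference of -0.70 over the 14 of 18 above either floor, 2 of them at least 2-fold lower and 0 higher. Of the 12 above both floors, 9 had a lower and 3 a higher value in the knockout, the latter being Hmox1 (0.50), Urod (0.24) and Alas1. Glrx5, which encodes a mitochondrial glutaredoxin of iron-sulfur assembly, read 13.80 and 11.86 and was 3.82-fold lower. Uros, which encodes an enzyme of porphyrin synthesis, was 2.10-fold lower, and its rows ranged from -1.07 to -0.08. Alas1, the first enzyme of haem synthesis in most cells, differed by 0.18, and Cpox, a later enzyme, by -0.78.

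Erythroid markers were lower beside them. Of 19 genes, 16 passed the floor in wild-type cells and 12 in knockout cells, 5 of 16 were at least 2-fold lower and 0 higher, and the median difference was -0.88. Their intensities summed to 146468 in wild-type cells and 97943 in knockout cells. Ank1, which encodes a membrane skeleton protein, was 4.19-fold lower and Hbb-b2, a globin gene, 5.09-fold, while the globin genes Hba-a1 and Hbb-b1 differed by -0.18 and -0.21. The part of erythroid cells in the values of Abcb6 and the haem genes was not tested. Alas2 belongs to both lists.

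The peroxisomal D subfamily held genes that differed in both directions. Abcd2, a transporter gene of very long chain fatty acids, read 11.57 in wild-type cells and 12.06 in knockout cells, a 1.41-fold higher level from a single row. Abcd3, which encodes a major protein of the peroxisomal membrane, read 11.29 and 11.17, a difference of -0.11. Abcd4, a lysosomal cobalamin transporter gene, was below both floors at 8.20 and 7.96.

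Peroxisome genes outside the family had a median difference of 0.42 over the 12 of 16 above either floor, with 0 genes 2-fold higher and 0 lower. Cat, the gene of catalase, read 11.93 in wild-type cells and 12.22 in knockout cells. Neutrophil markers had a median difference of 0.76, with 4 of 18 at least 2-fold higher and 0 lower, and 16 of the 17 above both floors had a positive difference, Mpo (-0.41) being the exception. Monocyte and macrophage markers had a median of 0.46, with 4 of 17 at least 2-fold higher and 0 lower, and 4 of the 15 above both floors had a negative difference, Cd14 (-0.44) and C1qb (-0.42) among them. Neutrophil intensities summed to 210152 and 296721 over 19 genes, those of monocytes and macrophages to 127544 and 177368 over 17 genes. Their part in the peroxisomal values was not tested.

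**Figure D4:**
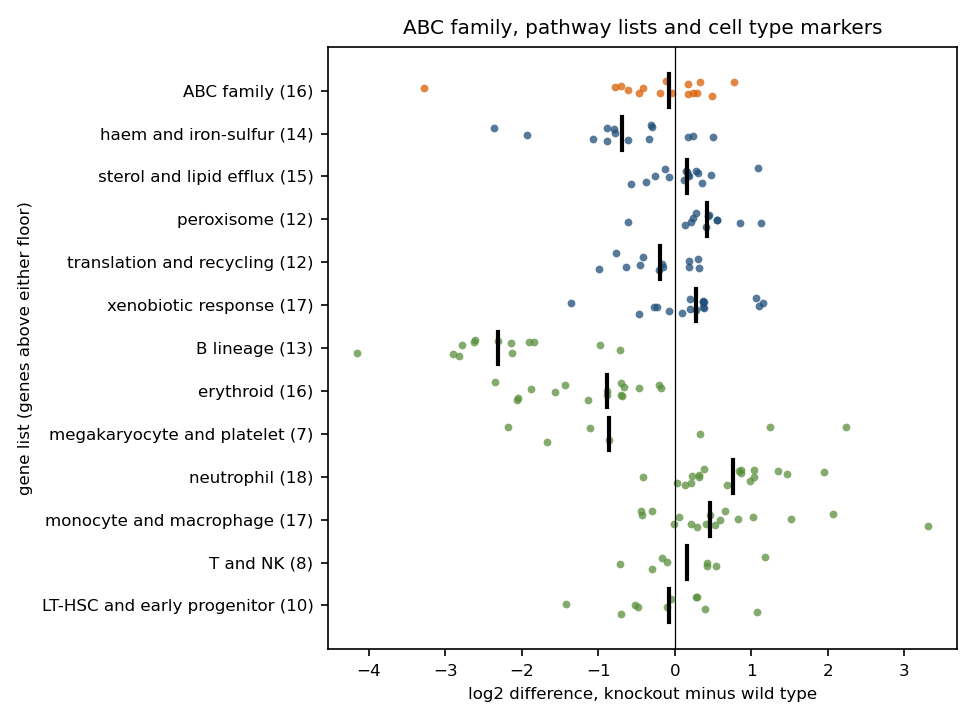
Log2 difference, knockout minus wild type, of each gene above either floor in the ABC family (orange), in 5 pathway lists (blue) and in 7 lists of cell type markers (green); black bars are medians and the number of genes stands beside each name. The ABC median lies at -0.07, the haem and iron-sulfur median at -0.70, the B lineage median at -2.31 and the neutrophil median at 0.76.

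All 4 soluble ATPases of the E and F subfamilies were detected on both arrays, and all 4 were lower in the knockout in their brightest row. Abce1, the ribosome recycling factor, read 12.15 in wild-type cells and 11.44 in knockout cells, a 1.63-fold lower level (chromosome 8 from 82207538 to 82235560). Its second row, below both floors at 7.37 and 8.35, differed by 0.97 in the other direction. Abcf2 read 10.67 and 10.26, a difference of -0.41 from a single row. Abcf1, which binds the initiation factor eIF2, read 11.24 and 11.04 in its brighter row, and its 2 detected rows differed by -0.20 and -0.30. Abcf3 read 10.22 and 10.19 in its brighter row and differed by -0.04 and -0.25 in its 2 detected rows, and its first value became positive after loess centring.

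The translation partners had a median difference of -0.19 over 12 of 14 genes above either floor, with 0 at least 2-fold higher and 0 lower. Eif5 and Gspt1, which encode an initiation factor and the release factor eRF3, differed by -0.42 and -0.98 in their brightest rows. The rows of Eif5 ranged from -0.74 to 0.81 and those of Gspt1 from -0.98 to 0.13. Etf1, the gene of the release factor eRF1, differed by 0.30, so the list held both directions.

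The xenobiotic response list, whose products sense or conjugate the compounds that drug pumps export, was mostly above zero. Of 20 genes measured, 17 were above either floor, 2 of them at least 2-fold higher and 0 lower, and the median difference was 0.28. Nfe2l2, which encodes the oxidative stress regulator NRF2, was 2.22-fold higher in its brightest row and higher in both rows. Mgst2, a microsomal glutathione transferase gene, was 2.14-fold higher. Gstm1 and Ephx1, conjugation and hydrolysis enzyme genes, differed by 0.09 and -0.08.

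Tap1, Tap2 and Cftr are ABC genes whose symbols do not carry the family name. Tap1 and Tap2 encode the peptide transporter that loads MHC class I molecules and are induced by interferon. Tap1 read 10.88 in wild-type cells and 11.73 in knockout cells, a 1.79-fold higher level, with its other row at 0.18. Tap2 read 11.12 and 11.45, a 1.26-fold higher level. The chloride channel gene Cftr was below both floors.

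The 28 ABC genes below both floors ranged from 4.05 to 9.06 in the wild type and from 4.31 to 8.95 in the knockout. Their differences ran from -2.11 to 1.29, and 5 of them reached 1 in size. These 5 were Abca9, Abcc9, Abca8b, Abca13 and Abcg4, for which no fold is given. Abca8a, a close paralog of Abca8b, lay nearest to the floors, at 9.06 and 8.94. The sulfonylurea receptor genes Abcc8 and Abcc9 and all 9 genes of the less studied part of subfamily A (Abca5, Abca6, Abca8a, Abca8b, Abca9, Abca13, Abca14, Abca15 and Abca16) were in this set.

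Different rows of a gene, which target different transcripts or parts of them, often differed. Of the 23 ABC genes with several rows, 10 had all rows on the same side of zero and 13 had rows on both sides. Only Abcf1 and Abcf3 had more than 1 row above both floors, and in each the detected rows shared their sign. Of the 84 rows of the family, 65 were below both floors. Over all genes with several detected rows, rows of 1 gene varied in their difference with a pooled SD of 0.37. Of the 14 ABC genes above both floors other than Abcb4, 8 differed by less than this and 6 by more. Rows are no replicates, so this spread is not an error of the arrays. Averaging all rows turned Abca3 from 0.18 to -0.29, Abce1 from -0.71 to 0.13 and Abcg1 from -0.47 to 0.19.

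**Figure D5:**
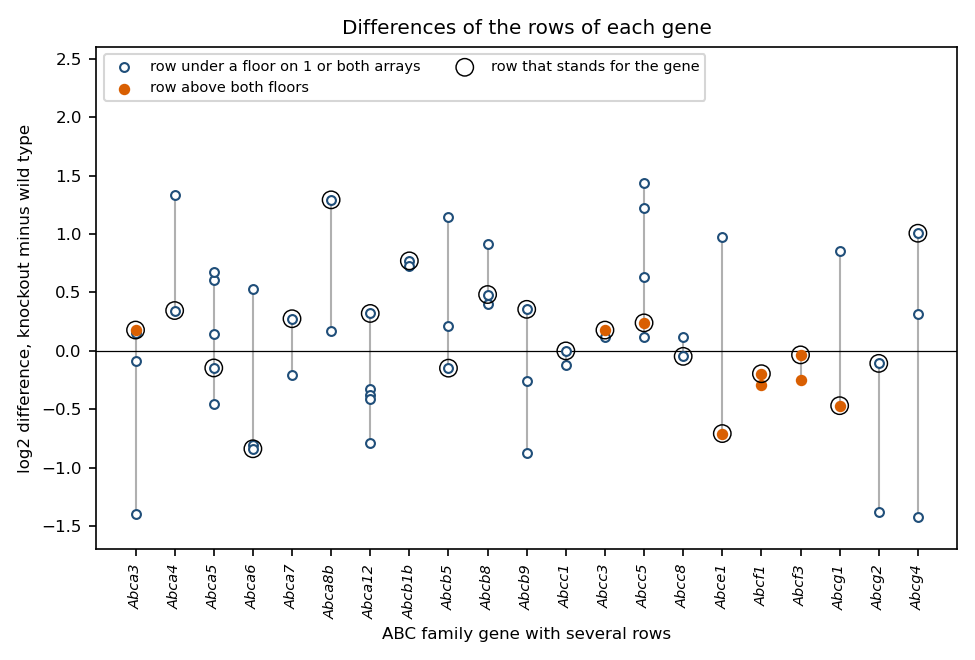
Log2 difference, knockout minus wild type, of every row of 21 of the 23 ABC genes with several rows; filled points are rows above both floors, open points rows below at least 1 floor, and rings mark the row that stands for the gene. Abcf1 and Abcf3 have 2 filled points each, and the rows of Abce1 run from -0.71 to 0.97.

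The RefSeq table held 38 promoter windows for 32 of the 44 genes. The first 250 bases of each window were taken as upstream of the start, although those of Abcb4 hold its gene start. These bases were searched on both strands for 3 motifs. These were an interferon response element core (GAAA repeated with 2 bases between), an EBF core (TCCC and GGGA with 2 bases between) and an LXR-type direct repeat (AGGTCA repeated with 4 bases between). Each had 0 matches in these windows. Over all 32851 windows of the table, 2.98%, 0.779% and 0.0152% held a match. A window without a match says only that these letters are not in it. The windows of the 11 genes above either floor held 9 to 34.5 CpG dinucleotides per gene (median 19), and those of the 21 genes below both held 0 to 25 (median 6), values being averaged where a gene has several windows. The 2 ranges overlapped, and the median of all windows was 6. The 11 were those of the 16 ABC genes above either floor that had a window. Detected and undetected genes were not compared in this way over the whole array. The contrast is thus not shown to be particular to ABC genes, and the windows are not all placed alike around the gene start. This comparison was made after the values were seen.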

How the data were processed

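RNA extraction used TRIZOL, and cDNA was primed with oligo dT and labelled with Cy3, per the labels' protocols. The authors deposited linear intensities made with RMA, per the submitters' processing notes. RMA, as generally defined, equalises the arrays' distributions, so each difference is relative to the other genes. Rows are placed on MM9 per the file headers, and 44155 of 44171 hold 3 probes. Array medians were 273 (wild type) and 271 (knockout), and the number of arrays limits the precision.

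Intensities were put on the log2 scale in Python 3.11.15, without further normalization. Symbols of other genes were updated by gene ID through a RefSeq table of GRCm38.p6. Of several rows of a gene, the row with the highest mean stood for it. The floor was the 95th percentile of 1029 receptor rows on each array (intensity 551 and 500.0). The call steps were tested on simulated data, with differences larger than 2-fold planted only in genes well above the floors. How they call smaller differences, or differences near a floor, was not tested. Members and lists were chosen with earlier results of these data known. Members above a floor, list genes past 2-fold and up to 2 of the brightest of each pathway list were named, with genes chosen for their role after values were seen (Nr1h3, Etf1, Hmox1, Urod, Mpo, Cd14, C1qb, Hba-a1, Hbb-b1, Kit, Ly6a, Procr and Slamf1). Some genes, 2 ABC genes included, count in the totals but are not reported here by name.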

Additional observations from a re-analysis of the deposited data

How the results depend on the processing

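The count of ABC genes at least 2-fold higher (0) or lower (1) did not change with floors set at the median of named rows. Nor did it change with rows averaged, with the row of second highest mean or after loess centring. The counts were also 0 and 1 with floors at the 99th percentile of receptor rows, at 3-fold and over members above both floors. Those settings can only keep or lower a count. The series-wide value table gave 0 and 1 too, but it holds the same values and is no separate check. With no floor there were 3 higher and 3 lower, and at 1.5-fold 1 higher (Abcb1b) and 4 lower (Abcb4, Abcb6 and Abce1 among them). The shares over all genes in these 2 settings were not computed, so these counts cannot be set against the whole array. The median of -0.07 became -0.25 with the row of second highest mean, over 9 genes, and -0.26 when the mean replaced it; under the other alternatives it ran from -0.14 to -0.04. Of the 16 single genes, 5 moved by more than 0.37 with rows averaged and 4 with the second row, and 0 after loess centring or in the series-wide table. Abcb4, Abcb6, Abcb10, Abcd2, Abcd3 and Abcf2 have 1 row each, so averaging or the second row could not move them. No alternative could test Abcb4 by a second row, since it has 1. No paired analysis was possible because each group has 1 array. Signal near the floor limits Abcb1b, Abcb9, Abca8a, Abcc1 and Abcc3.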
